A study of Mus musculus with 58 samples.

Results

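Primary mouse microglia lacking Ikbkb, the gene of the kinase IKKβ, were compared with control microglia by 3′ mRNA sequencing. The comparison took the 4 libraries whose genotype label was Ikbkb-/- and the 4 libraries labelled Ikbkb+/+, 8 of the 58 samples of the series. The series examined NF-κB signalling of microglia in tau models of neurodegeneration. The Ikbkb-/- cells, called IKKβ null here, carried Cx3cr1CreERT2/+ and Ikbkb F/F, so that a tamoxifen-inducible Cre recombinase expressed from the Cx3cr1 locus could delete the floxed gene. The Ikbkb+/+ controls carried Ikbkb F/F without Cre and were littermates. Both groups received 4-hydroxytamoxifen in mixed glial cultures from newborn cortex and hippocampus, and the microglia were then shaken off. Sex, age and treatment of the 8 samples were labelled as not applicable, and the source label read wildtype microglia for both genotypes.

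The design sets limits on the comparison. Cre activity, the loss of 1 Cx3cr1 allele to the CreERT2 insertion and the deletion of Ikbkb were present together in the null cells, so their effects cannot be told apart. The labels did not say whether the 4 libraries of a genotype came from separate animals or cultures, so the p-values measure the spread between these libraries, which may be technical. The libraries are bulk RNA, in which fewer cells of a type and less RNA per cell cannot be told apart. A separate set from the series, with the same Cre and a constitutively active kinase (IkbkbCA, 5 libraries) against its own controls (IkbkbWT, 5 libraries), served for the test of whether deletion and activation differed in effect. That set shared no library with the deletion experiment.

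IKKβ is the catalytic subunit of the IκB kinase complex, which also holds IKKα (Chuk) and the regulatory subunit NEMO (Ikbkg). Signals from Toll-like, interleukin-1 and tumour necrosis factor receptors activate it, and it then phosphorylates the IκB proteins, which are degraded and free the NF-κB dimers to enter the nucleus. NF-κB drives cytokines and chemokines in microglia, and also its own inhibitors, among them Nfkbia (IκBα) and Tnfaip3 (A20). Interferon genes are instead driven by a complex that holds STAT2 and IRF9 and binds the interferon-stimulated response element.

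The libraries held between 1792993 and 7436579 counts in genes, and 14926 to 18586 genes had at least 1 count. Total counts did not differ between genotypes beyond their spread (two-sided exact permutation test, p = 0.371, where 4 against 4 libraries can reach 0.0286 at the least). The first principal component held 47.4% of the variance and separated the genotypes, with control replicate 4 nearest to the null libraries. Genes of the sex chromosomes also separated them. Xist, the RNA that silences an X chromosome in female cells, was at 248, 278, 378 and 399 CPM (TMM-scaled counts relative to library size, the unit of every level below) in the controls and at 10.7, 5.69, 9.14 and 9.77 CPM in the null libraries. Ddx3y, a Y-linked helicase, was at 70.8, 62.9, 38.5 and 34.9 CPM in the controls and at 178, 174, 162 and 156 CPM in the null libraries. Neither gene overlapped between the groups, so the mix of male and female cells was not the same in both, and genotype and sex cannot be told apart by the 8 libraries alone. Values from a fit with Ddx3y as a covariate, called the Ddx3y fit below, are given beside many of the lists and, for several others, in the section on processing. In the IkbkbCA experiment none of the 5 sex-linked genes passed edgeR's test, and 0 had an unadjusted p under 0.05.

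**Figure D1:**
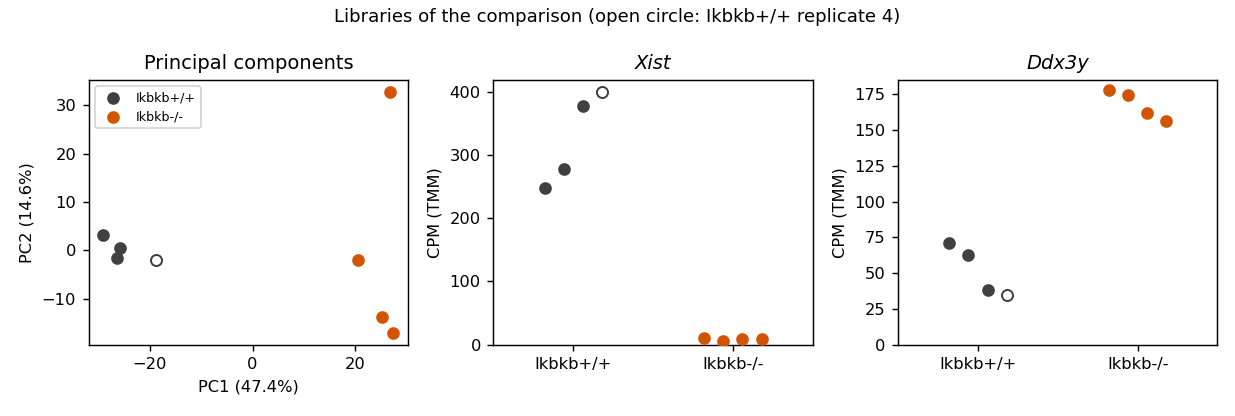
The 8 libraries by principal components 1 and 2 of TMM-scaled log2 CPM, and the CPM of Xist and Ddx3y in each library, with 4 control (Ikbkb+/+) and 4 null (Ikbkb-/-) libraries. The genotypes lie apart on component 1, Xist was at 248 to 399 CPM in the controls and at 5.69 to 10.7 CPM in the null libraries, and Ddx3y at 34.9 to 70.8 and at 156 to 178 CPM.

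The cells carried the markers of microglia. The 16 microglial markers summed to 26475 to 31237 CPM in the controls and to 32959 to 36205 CPM in the null libraries, without overlap. Aif1 (IBA1) rose by 0.71 on the log2 scale and Laptm5, a lysosomal protein of immune cells, by 0.60. Csf1r, the receptor on which microglia depend for survival, was at 2158, 2164, 1828 and 1640.0 CPM in the controls and at 1549.7, 1534, 1523 and 1696 CPM in the null libraries, and fell by 0.30 (SE 0.09, adjusted p = 0.036). Its ranges overlapped through control replicate 4 and null replicate 4. In a fit of the 18 libraries of both experiments Csf1r did not pass (adjusted p = 0.27).

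Of 11242 genes tested with edgeR's quasi-likelihood test, 1641 (14.6%) passed a Benjamini-Hochberg adjusted p of 0.05, the test behind every adjusted p below. These were 859 genes higher (7.64%) and 782 lower (6.96%) in the null microglia, and the median log2 fold change over all genes was 0.00. These shares are the background for every list count of this comparison below. The groups did not overlap for 2036 genes (18.1%). At least 2-fold, 237 genes rose and 197 fell. At least 8-fold, 38 rose and 10 fell, and 29 of those 38 stood in the interferon lists. These lists hold 144 genes and were chosen with earlier results of these data known. With Ddx3y as a covariate, 114 genes were higher and 176 lower. In a single fit of the 18 libraries of both experiments, which share an estimate of the spread, 444 were higher and 431 lower. The plot of the gene lists gives the broad picture: interferon genes, antigen presentation by MHC class I and p53 targets moved up, and cell cycle genes, markers of border-associated macrophages, immediate early genes and part of the NF-κB response moved down.

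**Figure D2:**
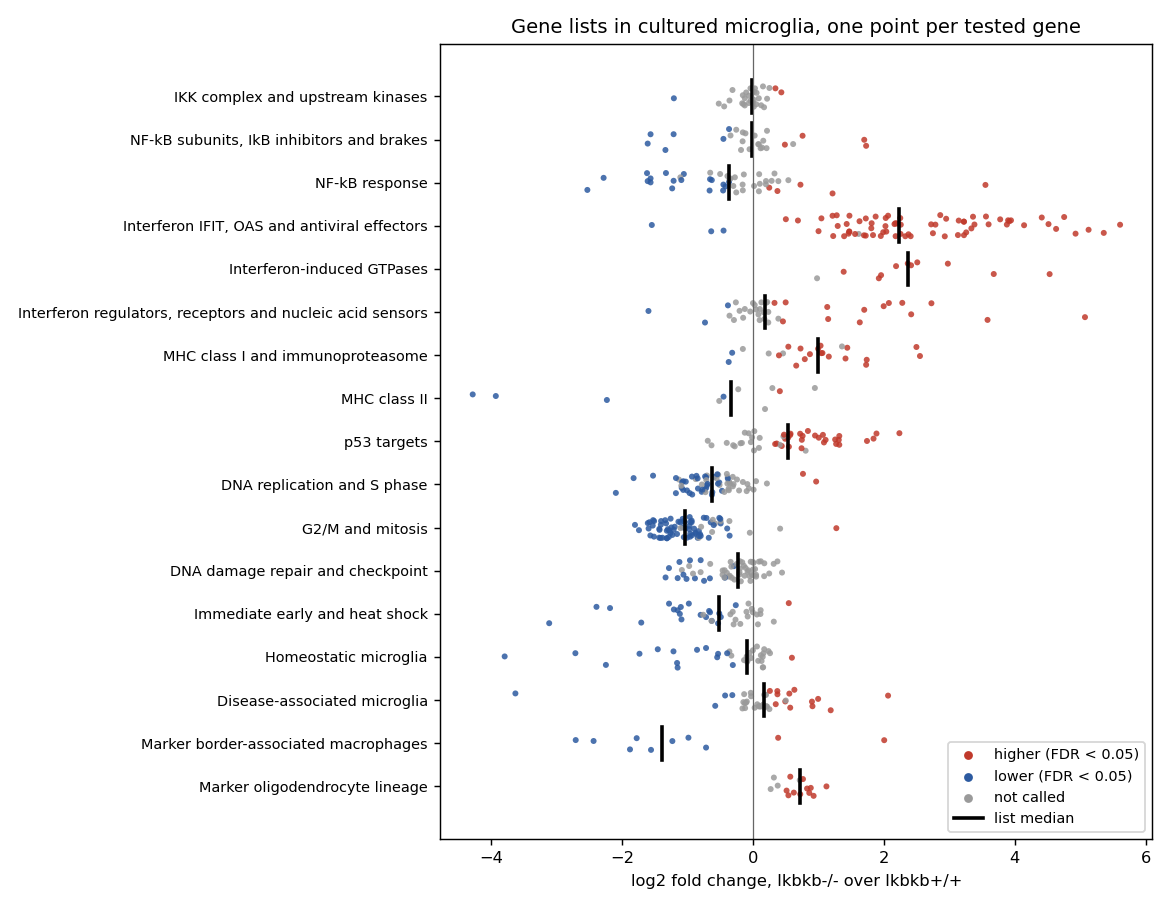
Log2 fold change (null minus control) of each tested member of the gene lists, 1 row per list, coloured red (higher) or blue (lower) past an adjusted p of 0.05 and grey otherwise, with a bar at the list's median. The interferon effectors have a median of 2.23 with 70 of 74 members higher, and the G2/M genes a median of -1.04 with 68 of 79 members lower.

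Ikbkb itself (ENSMUSG00000031537, chromosome 8, 22659212 to 22706589 in GRCm38.p6) was read at 54.4, 45.9, 53.4 and 55.0 CPM in the controls and at 25.4, 24.9, 18.8 and 22.5 CPM in the null libraries. Every null library lay below every control. The mean fell from 52.2 ± 4.25 to 22.9 ± 3.03 CPM (SD, n = 4 each), a 2.31-fold decrease with a log2 fold change of -1.20 (SE 0.12, adjusted p = 6.3e-07). It fell by 1.03 with the Ddx3y covariate, where it no longer passed (adjusted p = 0.11). The reads come from the 3′ ends of transcripts and the floxed exons were not named in the sources used here. A remaining level of Ikbkb reads is therefore no measure of intact transcript, nor does the fall alone check the deletion. The authors reported the loss of Ikbkb mRNA in such cultures separately, by quantitative PCR.

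Cx3cr1, the fractalkine receptor gene that carries the CreERT2 insertion on 1 allele of the null cells, was at 2917, 2582, 2218 and 1818 CPM in the controls. In the null libraries it was at 991, 965, 1148 and 1168 CPM, all below the lowest control. The log2 fold change was -1.16 (SE 0.12, adjusted p = 1.6e-06), against -0.56 in the IkbkbCA cells (adjusted p = 0.0015), which carry the same insertion, and the difference between these effects did not pass (adjusted p = 0.056).

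Of the IKK complex and its upstream kinases and adaptors, 30 of 31 listed genes were tested, and 3 passed, a share below the 14.6% over all genes. Ikbkb fell. Myd88, the adaptor of Toll-like and interleukin-1 receptors, rose by 0.44 (adjusted p = 0.0026, and 0.75 in the Ddx3y fit). Irak2, a kinase it recruits, was at 0.35 (adjusted p = 0.046), kept its call in 5 of 18 alternatives and was at -0.22 in the Ddx3y fit. The partner subunits did not pass the test: Chuk was at 0.02 (SE 0.14), with its sign turned under total-count scaling, and Ikbkg at 0.17 (SE 0.14). Rela, the p65 subunit of NF-κB, was at 0.12 (SE 0.08, adjusted p = 0.39).

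**Figure D3:**
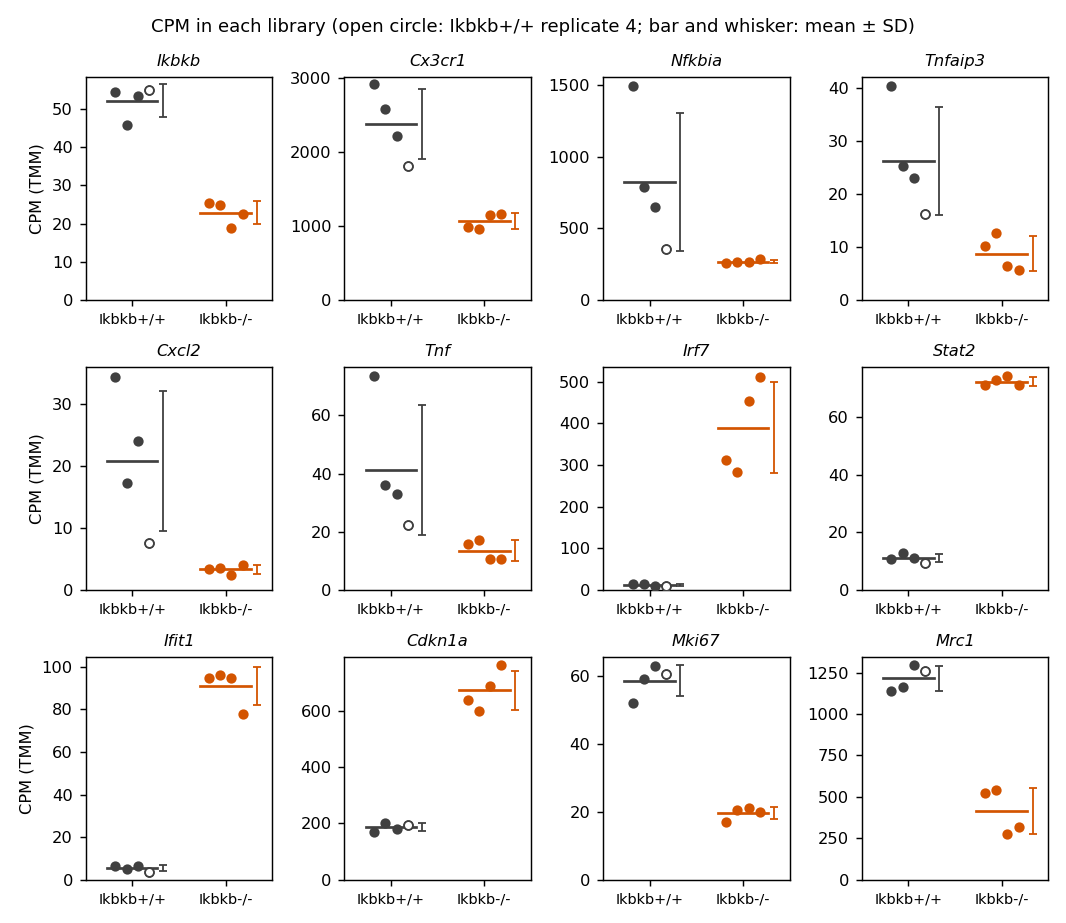
CPM of 12 genes in each library on linear axes from 0, with controls and null libraries side by side, bars and whiskers for the mean ± SD (n = 4 each) and control replicate 4 drawn as an open circle. Ikbkb, Cx3cr1, Nfkbia, Tnfaip3, Cxcl2, Tnf, Mki67 and Mrc1 are lower in the null libraries, and Irf7, Stat2, Ifit1 and Cdkn1a higher, with no overlap for any of the 12.

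The NF-κB subunits, IκB inhibitors and brakes, 26 of 27 listed genes tested, split into 4 that rose and 6 that fell, with a median of -0.01. Over all genes 7.64% rose and 6.96% fell. The 6 that fell were inhibitors and subunits that NF-κB is itself known to induce. Nfkbia was at 1495, 790.1, 649.5 and 356 CPM in the controls and at 256, 268, 263 and 286 CPM in the null libraries, with a log2 fold change of -1.60 (SE 0.27, adjusted p = 3.9e-04). The null libraries lay within a narrow band below all controls, whereas the controls spread widely, with replicate 4 the nearest to the null cells. Tnfaip3, the ubiquitin-editing enzyme that ends signalling to IKK, was at 40.3, 25.3, 23 and 16.3 CPM against 10.2, 12.6, 6.33 and 5.71 CPM, and fell by 1.56 (SE 0.27, adjusted p = 6.0e-04). Nfkbiz (IκBζ) fell by 1.21, Nfkb1 (p105/p50) by 0.45 (adjusted p = 0.004, but 0.077 in the fit of 18 libraries and 0.62 in the Ddx3y fit) and Bcl3 by 0.36. Nfkbid was at -1.33 (adjusted p = 0.034) and kept its call in 8 of 17 alternatives, with an adjusted p of 0.083 by limma-voom. In the Ddx3y fit 4 members of the list fell and 0 rose by edgeR, with 2 higher at an unadjusted p under 0.05. The 4 that rose were Nlrc5 (1.73), a transactivator of MHC class I genes, Socs1 (1.70), a feedback inhibitor of interferon signalling, Nlrc3 (0.76) and Pdlim2 (0.49).

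Among 45 tested genes of the NF-κB response, of 55 listed, 18 fell and 5 rose, against 6.96% lower and 7.64% higher over all genes, and the median was -0.36. The list overlaps the inhibitors just described, with Nfkbia, Tnfaip3, Nfkbiz, Nfkb1 and Bcl3 in both. Cxcl2, a neutrophil chemokine, was at 34.3, 17.3, 24.0 and 7.54 CPM in the controls and at 3.39, 3.58, 2.34 and 4.06 CPM in the null libraries. No null library reached the lowest control, and the log2 fold change was -2.53 (SE 0.39, adjusted p = 1.7e-04). Tnf was at 73.5, 36.0, 33.1 and 22.2 CPM against 15.8, 17.3, 10.5 and 10.5 CPM, again without overlap, and fell by 1.56 (SE 0.29, adjusted p = 0.0011). Ptgs2, the inducible cyclooxygenase, fell by 2.28 and the cytokine Il1a by 1.62, and Mmp9, Ccrl2, Cd40, Il1rn, Ccl2, Ier3, Ier2, Ccl3 and Marcksl1 fell by 0.42 to 1.33. Il1a kept its call in 11 of 18 alternatives, with an adjusted p of 0.22 by limma-voom. Mmp9 had an adjusted p of 0.80 in the fit of 18 libraries.

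The 5 members of the NF-κB response that rose were Ccl5 (3.55), Slfn2 (1.22), complement C3 (0.73), Csf1 (0.38) and Bcl2a1b (0.25). Ccl5, a T cell chemokine that interferon also induces, was at 4.10, 3.37, 1.65 and 1.06 CPM in the controls and at 21.5, 23.2, 30.0 and 28.2 CPM in the null libraries. In the Ddx3y fit Slfn2 was the member that rose (1.29), while Ccl5 was at 1.21 (adjusted p = 0.62) and C3 had an adjusted p of 0.70, beside 0.43 for C3 in the fit of 18 libraries. Il1b did not pass the test, at 79.0, 41.7, 40.3 and 30.5 CPM against 49.1, 69.5, 49.5 and 53.1 CPM, with overlapping ranges (log2 fold change 0.29, SE 0.21, adjusted p = 0.41, and -1.40 with the Ddx3y covariate). Without control replicate 1, its highest control, Il1b passed at 0.58 (adjusted p = 0.010). Il6, Il12b, Nos2, Csf2, Lcn2 and Cxcl1 had too few counts to be tested.

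Without control replicate 4, which had the lowest Nfkbia, Tnfaip3, Cxcl2 and Tnf of its group, 21 members of the NF-κB response fell and 3 rose. With Ddx3y as a covariate 10 fell and 1 rose, and in the fit of 18 libraries 10 fell and 2 rose. The list median was -0.58 with the covariate and -0.37 in the fit of 18 libraries, beside -0.36 in the main fit. Fewer calls in the Ddx3y fit thus did not go with a smaller median change, and Nfkbia was at -4.03 there (SE 0.40). The controls with the highest Nfkbia, replicates 1 and 2, were also those with the highest Ddx3y and the lowest total counts, and the part of either in the spread was not tested.

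Promoter sequences of the mouse genes were read from RefSeq (GRCm38.p6) over the 250 bases before and 50 bases after each start site, and searched on both strands for 4 motifs, each separately, so that matches may overlap. The κB motif, GGGA and TTCC with any 2 bases between, was in 1.63% of the promoters of all 27025 genes. It was in 7 of the 43 matched promoters of the NF-κB response list (16.3%), and in 2 of 12 for the members that fell (16.7%). The stretches below hold the matches, in capitals, of the inhibitor and the chemokine just described. Nfkbia lies on the minus strand (chr12:55492648-55492737) with its match ending 20 bases before the start site, and Cxcl2 on the plus strand (chr5:90903773-90903862) with a pair of overlapping matches, the last ending 87 bases before the start site.
Nfkbia: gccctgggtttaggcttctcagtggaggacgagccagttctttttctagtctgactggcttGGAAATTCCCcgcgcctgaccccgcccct
Cxcl2: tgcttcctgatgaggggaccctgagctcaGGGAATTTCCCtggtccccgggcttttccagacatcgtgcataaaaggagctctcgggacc
A match describes the letters of the promoter and is not a measured binding site.

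The interferon response rose almost as a whole. Of 80 listed IFIT, OAS and other antiviral effectors, 74 were tested, 70 rose and 3 fell, against 7.64% and 6.96% over all genes, and the median log2 fold change was 2.23. Of all 859 genes called higher 739 lay above every control library, and all 70 of these effectors did. With the Ddx3y covariate 38 rose and 2 fell. Of the 50 genes with the largest increase, 37 stood in the interferon lists, which were chosen with earlier results of these data known.

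Ifit1, which binds viral RNA without the host cap, was at 6.34, 5.05, 6.45 and 3.44 CPM in the controls and at 94.9, 96.3, 94.7 and 77.6 CPM in the null libraries, 17.7-fold higher (log2 fold change 4.14, SE 0.16, adjusted p = 1.4e-12). Isg15, a ubiquitin-like modifier, was at 22, 24.6, 22.5 and 31.6 CPM against 369, 335, 447 and 426 CPM, 15.4-fold higher (3.94, SE 0.13, adjusted p = 2.7e-13). Oas3, an oligoadenylate synthetase that activates RNase L, was at 1.86, 1.26, 0.331 and 1.19 CPM against 33.3, 35.4, 46.4 and 58.3 CPM, 41.1-fold higher (5.36, SE 0.28, adjusted p = 1.5e-10). In each of these the lowest null library was over 10 times the highest control. Effectors that rose further included Usp18 (3.92), the protease that removes ISG15, Rsad2 (3.90, viperin), Mx1 (3.22) and Mx2 (3.23), Bst2 (1.96, tetherin), Ifitm3 (2.25) and Eif2ak2 (1.43, the double-stranded RNA kinase PKR).

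Several of the largest increases lie in families of near-identical copies, whose reads the counting could split, and are uncertain as single genes. These are the p200 genes Ifi213 (5.61), Ifi206 (5.13), Ifi209 (4.52) and Ifi205 (3.60), the pair Ifit3 (4.63) and Ifit3b (4.75), and Oas1g (3.23) and Oas1a (2.18). The largest log2 fold change of all belonged to Gm13822 (5.95), with 75 counts over the null libraries and 1 over the controls, a ratio of 97.4 per total count with a 95% counting interval from 17 to 3897. Effectors that fell were Ifi27 (-1.54), at 149.9, 171, 164 and 158 CPM in the controls and 54.2, 59.4, 57.9 and 49.2 CPM in the null libraries, together with Ifitm2 (-0.63) and Ifi30 (-0.45), a lysosomal thiol reductase. Ifitm2 kept its call in 12 of 18 alternatives and Ifi30 in 11. In the fit of 18 libraries their adjusted p were 0.15 and 0.20.

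The GTPases that interferon induces against intracellular pathogens rose in 10 of 11 tested genes (19 listed), with a median of 2.37, and none fell. Iigp1 rose by 4.53, Gbp4 by 3.68, Gbp2 by 2.98 and Irgm1 by 2.37. Gbp2 was at 1.86, 1.89, 0.827 and 1.32 CPM in the controls and at 10.7, 12.6, 12.4 and 8.85 CPM in the null libraries. With the Ddx3y covariate 1 member rose and 0 fell. At an unadjusted p under 0.05, edgeR's main test gave 10 higher and 0 lower members, as DESeq2 did, and limma-voom 11 and 0.

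Regulators of the pathway divided by role. Of 38 tested regulators, receptors and sensors (45 listed), 14 rose and 3 fell, against 7.64% and 6.96% over all genes, with a median of 0.19. In the Ddx3y fit 7 of them rose and 1 fell. Irf7, the transcription factor that amplifies type I interferon, was at 13.4, 14.7, 10.1 and 9.65 CPM in the controls and at 313, 282, 453 and 509.7 CPM in the null libraries, 33.7-fold higher (5.07, SE 0.20, adjusted p = 1.9e-12). Stat2 was at 10.8, 12.8, 11.1 and 9.39 CPM against 71.2, 73.1, 74.3 and 71.3 CPM, 6.63-fold higher (2.73, SE 0.11, adjusted p = 4.9e-12), with tight groups on both sides. Its partner Irf9 rose by 1.14.

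Cytosolic sensors of RNA, Ddx58 (RIG-I, 2.28), Ifih1 (MDA5, 2.08) and Dhx58 (LGP2, 2.42), rose, as did the Z-nucleic acid sensor Zbp1 (3.58) and the endosomal receptor Tlr3 (1.63). The receptor chains and Irf3, the factor that starts type I interferon transcription, did not pass. Ifnar1 was at -0.26 (SE 0.11, adjusted p = 0.13), Ifnar2 at 0.13 (SE 0.08) and Irf3 at -0.04 (SE 0.13), with Irf3 at 0.09 without control replicate 2. Socs3, the feedback inhibitor of STAT3 signalling, fell by 1.59, and Stat5a fell by 0.73. Ifng had 0 counts in all 8 libraries, and Ifnb1 had too few counts to be tested.

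The interferon-stimulated response element was searched as GAAA and GAAA with any 2 bases between. It was in 3.99% of the promoters of all genes, in 29 of 57 matched promoters of the effectors that rose (50.9%), and in 6 of 7 of the GTPases that rose (85.7%). Over all listed members, whether they rose or not, the shares were near these, at 32 of 66 effectors (48.5%) and 10 of 11 GTPases (90.9%). Effectors with their values above are shown, with matches on either strand in capitals. They are Ifit1 (chr19:34640774-34640863, plus strand), Isg15 (chr4:156200825-156200914, minus strand) and Oas3 (chr5:120777675-120777764, minus strand), whose last matches end 76, 57 and 66 bases before the start site.
Ifit1: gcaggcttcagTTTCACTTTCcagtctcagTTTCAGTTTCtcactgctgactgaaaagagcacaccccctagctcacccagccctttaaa
Isg15: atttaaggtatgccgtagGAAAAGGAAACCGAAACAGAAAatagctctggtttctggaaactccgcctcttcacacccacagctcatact
Oas3: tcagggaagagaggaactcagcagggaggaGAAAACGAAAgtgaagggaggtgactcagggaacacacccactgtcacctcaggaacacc
Ifit1 holds 2 separate matches, Isg15 a run of 3 overlapping ones and Oas3 a single match in these stretches.

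MHC class I presentation rose with the interferon genes. Of 23 tested members (24 listed), 17 rose and 2 fell, with a median of 1.00. B2m, the light chain of every class I molecule, was at 2574, 2336, 2412 and 2206 CPM in the controls and at 4641, 4603, 5042 and 4736 CPM in the null libraries, 2.00-fold higher (1.00, SE 0.08, adjusted p = 7.3e-08). The peptide transporter subunit Tap1 rose by 1.74, from 44.7, 32.0, 25.0 and 22.9 CPM to 93.2, 88.3, 107 and 109 CPM. Heavy chains rose too, H2-K1 by 1.42, H2-D1 by 1.03, H2-T24 by 2.55 and H2-Q7 by 2.50, though these near-identical genes can share reads. The immunoproteasome subunits Psmb8, Psmb9 and Psmb10 rose by 1.05, 1.16 and 0.73. The members that fell, Calr (-0.37) and Pdia3 (-0.31), are chaperones of the endoplasmic reticulum. In the Ddx3y fit 0 members rose and 1 fell by edgeR, with a median of 0.61 and 9 higher at an unadjusted p under 0.05. There B2m was at 0.80 (adjusted p = 0.072) and Tap1 at 0.49 (adjusted p = 0.61).

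MHC class II went the other way in part. Of 10 tested genes (12 listed) 4 fell and 1 rose, against 6.96% and 7.64% over all genes. The 1 that rose was the cathepsin Ctss (0.41, but -0.23 with the Ddx3y covariate). H2-Eb1 was at 44.0, 17.3, 15.0 and 1.59 CPM in the controls and at 2.26, 1.05, 0.469 and 0.553 CPM in the null libraries (-4.28, SE 0.83, adjusted p = 0.0014). Cd74, the invariant chain, was at 54.4, 36.4, 32.6 and 1.72 CPM against 0.565, 3.16, 2.34 and 0.922 CPM (-3.92, SE 0.74, adjusted p = 0.0012). For both, control replicate 4 lay within the range of the null libraries. With limma-voom neither passed (adjusted p = 0.16 for H2-Eb1 and 0.28 for Cd74).

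Targets of the tumour suppressor p53 rose. Of 47 tested (59 listed) 28 rose and none fell by edgeR's test, with a median of 0.54. Of all genes called higher 739 of 859 lay above every control, and of these 28 p53 targets 26 did. At an unadjusted p under 0.05, 31 were higher and 3 lower; DESeq2 called 28 higher and 0 lower, and limma-voom 28 and 1. Cdkn1a, the cyclin-dependent kinase inhibitor p21, was at 170.0, 203, 182 and 193 CPM in the controls and at 639, 601, 686 and 761 CPM in the null libraries, 3.59-fold higher (1.84, SE 0.09, adjusted p = 4.9e-11). The gap between the groups was wider than either group's whole range. Psrc1 rose by 2.24, Phlda3, a repressor of AKT, by 1.89, Ccng1 by 1.26, Zmat3 by 1.27, and the pro-apoptotic genes Bbc3 (PUMA) by 0.76 and Bax by 0.58. Mdm2, which targets p53 for degradation, rose by 0.44, whereas Trp53 itself was at 0.05 (SE 0.20, adjusted p = 0.91). With the Ddx3y covariate 7 rose and 1 fell, with a list median of 0.49. There Cdkn1a was at 1.99 (adjusted p = 2.8e-04), and Bax at 0.89 did not pass (adjusted p = 0.28).

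Cell cycle genes fell. In the list of G2/M and mitosis 68 of 79 tested genes (82 listed) fell and 1 rose, with a median of -1.04. Of all genes called lower 644 of 782 lay below every control, and of these 68 genes 65 did. Mki67, the proliferation antigen Ki-67, was at 52.2, 59.2, 63.0 and 60.6 CPM in the controls and at 16.9, 20.4, 21.1 and 20.1 CPM in the null libraries, a log2 fold change of -1.56 (SE 0.11, adjusted p = 7.4e-09). Within each group the libraries were close, and the groups were far apart. The cytokinesis gene Anln fell by 1.80, the kinetochore subunit Nuf2 by 1.74, Spc24 by 1.58, Aurkb by 1.43, Foxm1, a transcription factor of mitotic genes, by 1.31, and Top2a by 1.31. Pttg1, securin, was the member that rose, from 55.2, 58.1, 52.2 and 47.6 CPM to 121, 109, 142 and 139.7 CPM (1.28, SE 0.10, adjusted p = 6.2e-08).

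Replication and S phase genes fell in 33 of 65 tested (67 listed), with a median of -0.62, and 2 rose. Cdc6, which loads the replicative helicase, was at 3.73, 4.84, 7.60 and 2.91 CPM against 1.13, 1.05, 1.17 and 1.11 CPM (-2.09, SE 0.39, adjusted p = 0.0011), and no null library reached a control. Ccne2 (cyclin E2) fell by 1.82, Mcm10 by 1.52, Mcm5 by 1.00 and Pcna, the sliding clamp, by 0.73. The genes that rose were the G1 cyclins Ccnd1 (0.97) and Ccnd2 (0.77). Ccnd2 kept its call in 10 of 18 alternatives, with an adjusted p of 0.65 in the fit of 18 libraries. Ccnd1 was at 501, 538, 500.2 and 489 CPM in the controls and at 768, 755, 1198 and 1239 CPM in the null libraries. With the Ddx3y covariate in edgeR, 3 G2/M genes and 0 S phase genes fell, and 3 S phase genes were lower at an unadjusted p under 0.05.

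A pair of motifs known from cell cycle promoters was searched in the same windows. The cell cycle homology region TTTGAA was in 20.2% of the promoters of all genes, 14.1% of those of tested genes, and 37 of 54 matched promoters of the G2/M genes that fell (68.5%). The E2F motif TTTCCCGC was in 1.24% of all promoters, 2.54% of those of tested genes, and 5 of 27 for the S phase genes that fell (18.5%). Over all listed members, whether they fell or not, TTTGAA was in 43 of 67 G2/M promoters (64.2%). The E2F motif was in 11 of 53 listed S phase promoters (20.8%). Stretches of 3 mitotic genes and of Cdc6 are shown, with matches on either strand in capitals. Cdk1 (chr10:69352913-69353002, minus strand), Prc1 (chr7:80294386-80294475, plus strand) and Kif11 (chr19:37376292-37376381, plus strand) hold TTTGAA or its reverse complement, the last match ending 10, 25 and 14 bases before the start site. Cdc6 (chr11:98907983-98908072, plus strand) holds the E2F letters on the opposite strand, 131 bases before the start site.
Cdk1: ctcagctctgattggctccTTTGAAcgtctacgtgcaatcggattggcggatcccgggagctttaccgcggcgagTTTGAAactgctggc
Prc1: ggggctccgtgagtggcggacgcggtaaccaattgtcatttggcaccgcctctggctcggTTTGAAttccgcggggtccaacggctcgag
Kif11: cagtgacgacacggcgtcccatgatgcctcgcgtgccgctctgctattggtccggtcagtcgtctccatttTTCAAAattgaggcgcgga
Cdc6: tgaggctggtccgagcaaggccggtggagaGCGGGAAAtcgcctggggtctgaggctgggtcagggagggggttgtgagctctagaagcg
Prc1, a bundler of spindle microtubules, fell by 1.30, the spindle motor Kif11 by 1.43 and the mitotic kinase Cdk1 by 0.84, though Cdk1 was at 0.14 with the Ddx3y covariate.

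Genes of nucleotide supply fell more often than they rose. Of 41 tested (43 listed) 9 fell and 4 rose, against 6.96% and 7.64% over all genes. The share that rose was near that over all genes. The ribonucleotide reductase subunits Rrm2 and Rrm1 fell by 1.35 and 1.16, thymidine kinase Tk1 by 1.25 and Tyms by 0.99. Those that rose included Cmpk2 (3.78), a mitochondrial kinase that interferon induces, Dck (1.24), which salvages deoxynucleosides, and Samhd1 (1.15), which hydrolyses deoxynucleoside triphosphates. In the Ddx3y fit 1 member rose and 0 fell by edgeR, with 3 lower at an unadjusted p under 0.05. Of 60 tested genes of DNA repair and checkpoints (71 listed) 13 fell and none rose by edgeR (24 and 2 at an unadjusted p under 0.05, and 11 and 0 by DESeq2). Those that fell included the recombination gene Brca2 (-1.15) and the checkpoint kinase Chek1 (-1.01), and 0 fell in the Ddx3y fit, with 3 lower at an unadjusted p under 0.05.

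Cytokines and chemokines, a list that shares Cxcl2, Tnf, Il1a, Ccl2, Ccl3, Ccl5 and Csf1 with the NF-κB response, moved both ways. Of 31 tested ligands (51 listed) 11 rose and 10 fell, against 7.64% and 6.96% over all genes. Cxcl9, an interferon-induced chemokine, had 72 counts over the null libraries and 3 over the controls, a ratio of 31.2 per total count with a 95% counting interval from 10.3 to 155. Ccl12 was at 38.4, 23.4, 28.1 and 17.6 CPM against 73.4, 75.9, 97.7 and 95.7 CPM (1.75, SE 0.17, adjusted p = 6.2e-07), and the death ligand Tnfsf10 (TRAIL) rose by 2.75, Il18 by 0.89 and Il15 by 0.68. Ccl24, an eosinophil chemokine, was at 15.7, 16, 20.5 and 24.5 CPM against 3.95, 5.27, 2.58 and 2.21 CPM and fell by 2.51 (SE 0.25, adjusted p = 8.5e-07). Pf4, Ccl7, Ccl9 and Ccl6 fell by 0.57 to 0.98. The fit of 18 libraries had 5 ligands higher and 3 lower. The Ddx3y fit had 6 lower and 0 higher by edgeR, with 2 higher at an unadjusted p under 0.05, and there Ccl12 was at 0.90 (adjusted p = 0.45), Tnfsf10 at 0.60 (0.93) and Ccl24 at -1.50 (0.22).

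Homeostatic genes of microglia fell in 14 of 35 tested genes and rose in 1, Olfml3 (0.60, but -0.12 with the Ddx3y covariate), while the median was -0.09. Over all genes 6.96% fell and 7.64% rose. In the Ddx3y fit 17 fell and 0 rose by edgeR, with 1 higher at an unadjusted p under 0.05 and a median of -1.30. Several of the largest decreases rested on 3 of the 4 controls. Siglech, a microglial lectin, was at 316, 205, 92.2 and 9.79 CPM in the controls and at 9.04, 15.8, 9.61 and 8.11 CPM in the null libraries (-3.79, SE 0.68, adjusted p = 7.6e-04). Sparc was at 1003, 843, 439 and 102 CPM against 91.5, 113, 164 and 125 CPM (-2.24, SE 0.43, adjusted p = 0.0012), and P2ry12, the purinergic receptor of surveying microglia, at 498, 419, 282 and 111 CPM against 133, 147, 139 and 139 CPM (-1.21, SE 0.28, adjusted p = 0.0062). For all 3 genes control replicate 4 lay within or below the null range. The fructose transporter Slc2a5 fell by 2.71 (adjusted p = 0.073 by limma-voom) and Csf1r and Cst3 by 0.30 and 0.54. In the fit of 18 libraries neither Csf1r (adjusted p = 0.27) nor Cst3 (0.071) passed.

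Control replicate 4 was also the lowest control for genes of other lists, where the other controls were themselves spread. Itgax (CD11c) was at 41.4, 17.7, 18.2 and 2.25 CPM in the controls and fell by 3.63. The heat shock gene Hspa1a was at 115, 126, 70.8 and 15.3 CPM in the controls and at 11.9, 20.0, 16.4 and 18.8 CPM in the null libraries. S100a9, a calcium-binding protein of neutrophils, was at 158, 40.4, 13.7 and 3.04 CPM in the controls and at 5.08, 4.64, 2.58 and 3.50 CPM in the null libraries. Of the 782 genes that fell, 41 had control replicate 4 below 0.5 times the mean of the other 3 controls. Without that library Siglech was at -4.21, Itgax at -4.07 and Hspa1a at -2.56. With limma-voom they did not pass (adjusted p = 0.12, 0.12 and 0.081), whereas Sparc (0.023), P2ry12 (0.046) and Gem (0.028) did.

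**Figure D4:**
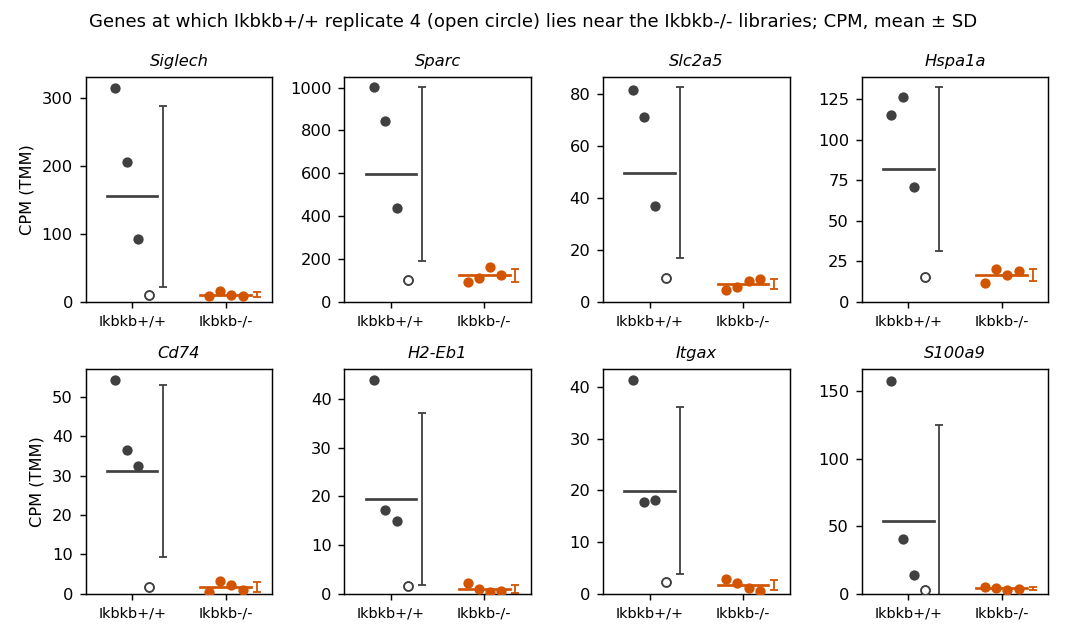
CPM on linear axes from 0 of 8 genes for which control replicate 4, drawn as an open circle, lay near the null libraries. The 4 controls and 4 null libraries are drawn side by side, with bars and whiskers for the mean ± SD. The open circle lies within the range of the null libraries for 7 of the genes, and for Slc2a5 at 9.39 CPM beside a highest null library of 8.85 CPM.

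Genes of disease-associated microglia rose in 13 of 41 tested and fell in 4, against 7.64% and 6.96% over all genes, with a median of 0.17. The fit of 18 libraries had 7 higher and 1 lower, and the Ddx3y fit 1 higher, Lgals3bp, and 1 lower, with a median of -0.04. Among those that rose were Lgals3bp (2.07) and B2m, both also interferon-induced, the phagocytic receptor Axl (0.91), Cd52 (1.19), Cst7 (0.90), Gpnmb (0.56) and Spp1 (0.35). Spp1 kept its call in 10 of 18 alternatives, with an adjusted p of 0.16 in the fit of 18 libraries. Itgax, Ccl6 (-0.57), Lyz2 (-0.42) and Sh3pxd2b (-0.31) fell, with Lyz2 at 0.04 under the Ddx3y covariate.

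Markers of border-associated macrophages, which line the meninges and vessels, changed in all 10 tested genes of 12 listed, with 8 lower and 2 higher. Their sum was 3635 to 3797 CPM in the controls and 1568 to 2232 CPM in the null libraries. Mrc1 (CD206) was at 1139.9, 1162, 1293 and 1262 CPM against 525, 544, 274 and 321 CPM (-1.55, SE 0.17, adjusted p = 2.0e-06). Lyve1 fell by 2.70, F13a1 by 2.43, Cbr2 by 1.87, Stab1 by 1.23 and Pf4 by 0.98. Siglec1 (2.01), which is also interferon-induced, and Ms4a7 (0.39) rose. In the Ddx3y fit 2 were lower, Cbr2 and Stab1, and 1 higher, and Mrc1 was at -1.50 (adjusted p = 0.11), Lyve1 at -0.90 (0.73) and F13a1 at -0.59 (0.78).

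Of the immediate early and heat shock genes 20 of 38 tested (40 listed) fell and 1 rose, Ier5 (0.55), with a median of -0.52. Fos fell by 1.21, Egr1 by 1.15, Dusp1, a phosphatase of MAP kinases, by 1.70 and Myc by 1.28. Dusp2, a phosphatase of the same family, fell by 3.11, but had an adjusted p of 0.084 by limma-voom. The endoplasmic reticulum chaperone Hspa5 (BiP) fell by 0.67.

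Receptors of uptake and immune complexes changed in both directions. In the complement and Fc list 7 of 20 tested genes (26 listed) rose and 2 fell, against 7.64% and 6.96% over all genes. The activating receptor Fcgr4 was at 48.1, 41.1, 26.4 and 36.8 CPM against 126, 115, 133 and 118 CPM (1.72, SE 0.13, adjusted p = 2.9e-08). Fcgr1 rose by 1.30 and C2 by 1.13, while Fcgrt, the neonatal Fc receptor, fell by 0.51. Once Ddx3y was a covariate 3 of the 20 were lower and 0 higher by edgeR, with 1 higher at an unadjusted p under 0.05, and Fcgr4 was at 0.85 (adjusted p = 0.26) and C2 at 0.51 (0.69). Of 43 pattern recognition and scavenger receptors tested (51 listed) 7 rose and 8 fell, against 7.64% and 6.96% over all genes. In the Ddx3y fit 0 of them rose and 2 fell, with 5 higher at an unadjusted p under 0.05. Clec4a2 fell by 1.57, Cd36 by 1.54 and Stab1 by 1.23, and Trem1 rose by 1.03. Of 67 migration and adhesion genes tested (78 listed) 6 rose, led by the receptor P2ry14 (2.41), and 12 fell, among them the chemokine receptor Ccr1 (-1.64), and the share that rose was near the 7.64% over all genes.

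Markers of cells other than macrophages were low but not all equal between the genotypes. Oligodendrocyte markers rose in 11 of 15 tested genes, with sums of 665 to 828 CPM in the controls and 1103 to 1297 CPM in the null libraries. With Ddx3y in the model 3 of them were higher, and in edgeR's fit of 18 libraries 0 were, with 3 at an unadjusted p under 0.05. Enpp6, a marker of newly formed oligodendrocytes, was at 4.47, 5.47, 2.65 and 4.50 CPM against 10.2, 10.3, 8.91 and 7.93 CPM (1.12, SE 0.24, adjusted p = 0.0031), without overlap, but at 0.20 in the Ddx3y fit (adjusted p = 0.94) and with an adjusted p of 0.41 in the fit of 18 libraries. Mag rose by 0.93 and Mbp by 0.57, though with the Ddx3y covariate Mag was at -0.44 and Mbp at -0.14. Neuronal markers summed to 72.6 to 102 CPM and to 104 to 128 CPM, and 1 of 6 tested genes rose, Map2 (0.42). Of the astrocyte markers 2 of 11 tested rose and Slc1a3 fell. Fibroblast markers summed to under 35 CPM in every library, with Dpt and Lum at 0 in all 8. Granulocyte markers summed to 439.6, 109, 49.4 and 14.2 CPM in the controls and to 15.7 to 21.7 CPM in the null libraries. Monocyte markers changed in 2 of 6 tested genes, Ms4a4c up (3.15), itself interferon-induced, and Fn1 down (-0.76). Endothelial markers changed in 3 of 4 tested genes, with Flt1 up (1.16) and Pecam1 (-2.01) and Egfl7 (-1.51) down. No lymphocyte marker had enough counts to be tested, and 8 of 14 were at 0 in all libraries. The part of these cells in the other results was not tested.

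Of the transcripts encoded in the mitochondrial genome 5 of 10 tested (15 listed) fell and none rose by edgeR, DESeq2 or limma-voom (6 and 0 at an unadjusted p under 0.05). mt-Cytb was at 4411, 4339, 4296 and 3836 CPM in the controls and at 2592, 2511, 2483 and 2336 CPM in the null libraries (-0.77, SE 0.08, adjusted p = 2.0e-06).

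The last comparison asked whether deletion of IKKβ and its constitutive activation had different effects. The difference of the log2 fold changes (null effect minus IkbkbCA effect) passed for 386 of 12352 genes tested (3.12%), 111 higher (0.899%) and 275 lower (2.23%). In the simulated data 4-fold differences were recovered in 78% of genes and 2-fold differences in 42.42%, so a gene that did not pass is not thereby shown to respond alike. Without control replicate 3, 255 genes passed. Ikbkb was read at 46.9 ± 6.75 CPM in the IkbkbWT libraries and at 52.5 ± 6.36 CPM in the IkbkbCA libraries (SD, n = 5 each), with a log2 fold change of 0.17 (SE 0.12, adjusted p = 0.41). The active kinase is a transgene in the Rosa locus, and whether its transcripts are counted as Ikbkb was not examined, so this level does not check the activation. By quantitative PCR the authors reported raised Ikbkb mRNA in such cultures.

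Of 49 tested genes of the NF-κB response 27 had a lower effect in the null cells and none a higher one by edgeR, the most of any list (35 and 0 at an unadjusted p under 0.05, and 28 and 0 by DESeq2). In the IkbkbCA cells 29 of 49 rose and 3 fell (7.31% and 7.16% over all genes), with a median of 1.14. Nfkbia fell by 1.60 on deletion and rose by 1.38 on activation, a difference of -3.0 (SE 0.37, adjusted p = 7.3e-05). For Tnfaip3 the effects were -1.56 and 1.35 and the difference -2.94 (SE 0.42, adjusted p = 3.6e-04), and for Cxcl2 they were -2.53 and 2.82 and the difference -5.39 (SE 0.98, adjusted p = 0.0033). Il1b, which did not pass in the null cells, rose by 2.44 on activation and differed by -2.20 (SE 0.56, adjusted p = 0.036). C3 rose in both, by 0.73 and 4.67, with a difference of -3.97 (SE 0.59, adjusted p = 4.4e-04).

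The interferon genes rose in both experiments. In the IkbkbCA cells 66 of 73 tested effectors were higher and 1 lower, with a median of 1.90 beside 2.23 in the null cells. The difference passed for 3 of 75 effectors, near the 3.12% over all genes. All 3 had the larger increase in the null cells: Cmpk2 (3.78 and 2.61, difference 1.14), Sp110 (1.47 and 0.26, difference 1.19) and Ifi207 (1.28 and 0.26, difference 1.01). Irf7 rose by 5.07 and 4.20, a difference of 0.84 (SE 0.49, adjusted p = 0.44), and Stat2 by 2.73 and 2.04, a difference of 0.66 (SE 0.35, adjusted p = 0.38). MHC class I rose in 20 of 24 tested genes on activation, and H2-K1 rose less in the null cells (1.42 and 2.54, difference -1.14, SE 0.23, adjusted p = 0.0069). All Cre-bearing libraries of both experiments carried the Cx3cr1 insertion and all controls lacked it, so effects of Cre or of the lost Cx3cr1 allele cannot be told apart from those of either Ikbkb allele.

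In both experiments more p53 targets rose than fell, and more mitotic genes fell than rose. On activation 17 of 50 tested p53 targets rose and 1 fell (median 0.41), and Cdkn1a rose by 1.33 beside 1.84 on deletion, a difference of 0.50 (SE 0.17, adjusted p = 0.13). The difference passed for 2 of 51 p53 targets, near the 3.12% over all genes. These were Cd80 (-1.41) and Hexim1 (-0.49), both with the lower effect in the null cells. Of 80 tested G2/M genes 36 fell and 3 rose on activation (median -0.57). The difference passed for 4 of 81 tested G2/M genes, beside 3.12% over all genes. Each had the larger decrease in the null cells: Hmgb2 (-0.90), Ccna2 (-0.90), Nusap1 (-0.79) and Spc24 (-1.0). Replication and S phase genes fell in 2 of 65 on activation and rose in 1, with a median of -0.18 beside -0.62 on deletion, but 0 S phase genes passed edgeR's test of the difference, with 18 lower at an unadjusted p under 0.05 and 1 called lower by DESeq2.

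**Figure D5:**
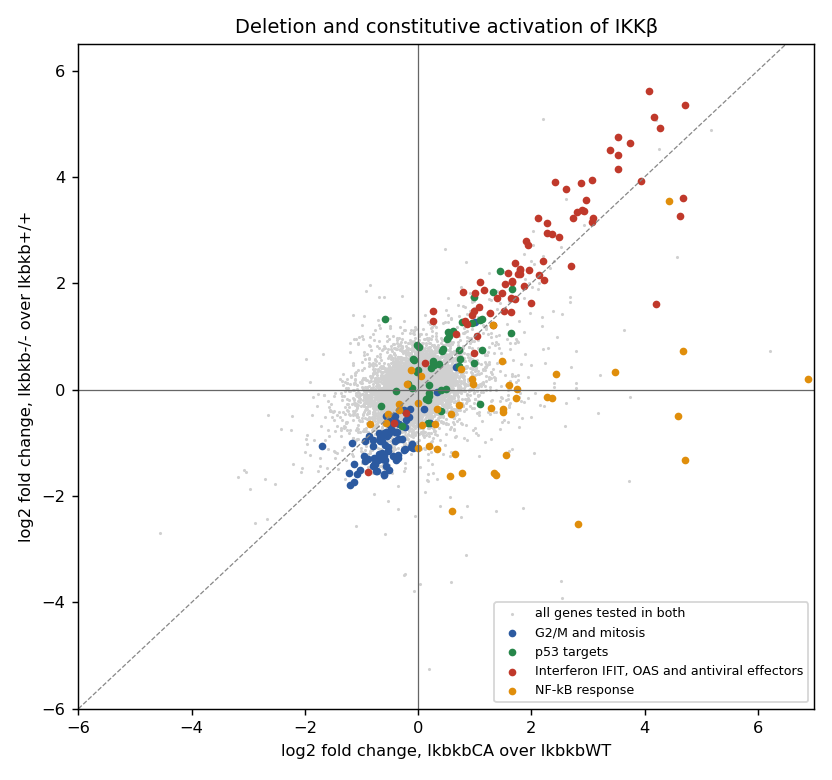
Log2 fold change on activation (IkbkbCA minus IkbkbWT, horizontal) against that on deletion (null minus control, vertical) for each gene, with NF-κB response, interferon effector, p53 target and G2/M genes coloured and a dashed line of equal effects. Interferon effectors lie in the upper right near the line (Oas3 at 4.72 and 5.36), and NF-κB genes such as Cxcl2 (2.82 and -2.53) in the lower right.

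Border-associated macrophage markers were lower in both experiments, with 8 of 10 lower on deletion and 7 of 11 on activation, and Mrc1 fell by 1.55 and 2.07 (difference 0.50, SE 0.25, adjusted p = 0.35). The difference passed for 4 of 11 tested class II genes, against 3.12% over all genes, all with the lower effect in the null cells. By limma-voom 0 passed, with 3 lower at an unadjusted p under 0.05. Cd74 was at -3.92 and 2.55, a difference of -6.57 (SE 0.91, adjusted p = 2.7e-04), a value that rests in part on the controls other than replicate 4. Dusp2, Hspa1a and Fos showed differences of -4.08, -3.10 and -1.67, all past the test, and Siglech a difference of -3.76 (adjusted p = 0.016). The values of Hspa1a and Siglech also rest in part on the controls other than replicate 4. By limma-voom the null effects of Dusp2 (adjusted p = 0.084), Hspa1a (0.081) and Siglech (0.12) did not pass. Of the genes with a higher effect in the null cells, Fcgr4 differed by 1.17 (SE 0.31, adjusted p = 0.045), Spp1, which rose on deletion and fell by 0.53 on activation, by 0.87 (SE 0.19, adjusted p = 0.011), and Ccr1 (-1.64 and -3.18) by 1.5 (SE 0.34, adjusted p = 0.018). The rise of Spp1 on deletion did not pass in the fit of 18 libraries (adjusted p = 0.16).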

How the data were processed

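QuantSeq 3′ FWD libraries were mapped by the authors on the BlueBee platform with GENCODE GRCm38, and the submitters' processing notes list STAR, RSEM, edgeR and limma without versions. The deposited counts are whole reads per gene and library, and the closing summary rows name no gene and were dropped (reads outside genes were 15.1% to 18.4% of each library). Of 47643 identifiers 47224 had a symbol. Genes passed edgeR's filter (minimum count 10, total 15), were TMM-scaled and fitted with glmQLFit and glmQLFTest by genotype (R 4.3.3, edgeR 4.0.16, limma 3.58.1, DESeq2 1.42.0), with 8 libraries per fit, or 18 for the difference between experiments. On simulated data 82.65% of 2-fold and 100% of 4-fold changes were recovered, with 8.673% false calls. No libraries were identical (0 pairs), and replicates differed beyond counting noise. Intervals of low-count ratios are exact, at 95%, and cover counting error only. Members and lists were chosen with earlier results of these data known. Named genes were those with the largest changes overall and per list past the threshold, plus others chosen after their values were seen. Alternatives covered scaling, filters, tools, covariates and each library left out.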

Additional observations from a re-analysis of the deposited data

Results flagged for a closer look

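In 12 of 360 groups of 4 libraries checked, the highest or lowest library stood apart from the other 3, its gap to the nearest of them being above Dixon's 95% critical share of the group's range. Chance flags about 1 in 20 groups. In the controls these were Lyve1 in replicate 3 (56.87 CPM, the highest), Dck in replicate 3 (18.85 CPM), Fcgrt in replicate 2 (117.5 CPM), and Stat5a (10.07 CPM), Clec4a2 (26.47 CPM) and Hmgb2 (17.52 CPM) in replicate 1. In the null libraries they were Irf3 (32.67 CPM) and Nlrc5 (15.17 CPM) in replicate 2, Map2 in replicate 3 (83.67 CPM), and Cxcl9 (5.715 CPM), Csf1r (1696 CPM) and Ifit1 (77.61 CPM) in replicate 4. Control replicate 4 was in none of these, since the other 3 controls were themselves spread for the genes in which it was lowest.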

How the results depend on the processing

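No paired analysis was possible because the titles of the 8 libraries carry no shared replicate number, and the numbers used here follow accession order only. The count of genes past the threshold was 1641, and it moved by less than 1.5 times under other scalings, filters and tools. It was 875 (444 higher, 431 lower) in a fit of 18 libraries, where 10 NF-κB response genes fell. With Ddx3y as a covariate, which separates the genotypes without overlap, it was 290 (114 higher, 176 lower). There 10 NF-κB response, 0 S phase and 3 G2/M genes fell, 38 interferon effectors and 7 p53 targets rose, and Ikbkb was at -1.03. Higher and lower calls there were 0 and 17 for immediate early and heat shock, 0 and 17 for homeostatic, and 3 and 9 for migration genes. They were 0 and 5 for class II, 2 and 2 for autophagy, 1 and 1 for apoptosis, and 0 and 3 for mitochondrially encoded genes. With that covariate the signs of Irak2 (-0.22), Ctss (-0.23), Olfml3 (-0.12), Lyz2 (0.041), Galc (0.0012), Mag (-0.44), Mbp (-0.14), Acta2 (-0.091), Cdk1 (0.14), Chuk (-0.20), Il1b (-1.40) and Trp53 (-0.23) turned, and the cause was not tested. None of these genes passed in that fit. Ddx3y was itself the covariate, so its own value there (-0.030) is near 0 by construction. Standard errors were wide in that fit, at 0.33 for Ikbkb beside 0.13 in the fit of 18 libraries. Other signs turned for genes that had not passed. With 1 library left out the values ran from -0.11 to 0.086 for Irf3 (above 0 without control replicate 2), from -0.028 to 0.62 for Acta2 (below 0 without null replicate 2), from -0.16 to 0.12 for Chuk (below 0 without null replicate 2) and from -0.059 to 0.21 for Trp53 (below 0 at -0.040 without control replicate 1 and without null replicate 1). Chuk was also at -0.0065 under total-count scaling and -0.0031 with limma-voom. Leaving out each library in turn gave 1205 to 1583 genes (629 to 795 higher, 554 to 789 lower), 15 to 21 NF-κB response genes, 28 to 32 S phase and 60 to 68 G2/M genes lower, 69 to 72 effectors and 24 to 30 p53 targets higher, and a log2 fold change of -1.27 to -1.12 for Ikbkb and of -1.27 to -1.05 for Cx3cr1. The difference from the IkbkbCA effect passed in 255 to 329 genes, against 386 with all libraries. Of 187 named genes 44 kept direction and call in all 18 alternatives. Depth limits genes of few counts: 3 counts stand for 0.403 to 1.67 CPM, by library.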

Other observations

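Genes of autophagy and the lysosome moved little. Of 69 tested (72 listed) 10 rose and 5 fell (7.64% and 6.96% over all genes), with a median log2 fold change of 0.07. Npc2, which carries cholesterol out of the lysosome, rose by 0.59 (SE 0.10, adjusted p = 3.5e-04), and the starters of autophagy Atg13 and Ulk1 by 0.50 and 0.46. Cst3, an inhibitor of cysteine proteases, fell by 0.54 (adjusted p = 0.071 in the fit of 18 libraries) and Galc, a lysosomal galactosylceramidase, by 0.46. Of 38 tested genes of cholesterol and lipid handling (42 listed) 4 rose and none fell by edgeR or DESeq2 (14 and 2 at an unadjusted p under 0.05), a share that rose near the 7.64% over all genes. By limma-voom 2 rose, and 0 did in edgeR's fit of 18 libraries (2 at an unadjusted p under 0.05) or with Ddx3y as a covariate (5). Apoc1 (0.46) and Hmgcs1 (0.32), among the 4, kept their call in 9 and 7 of 18 alternatives. Of 46 tested genes of apoptosis and survival (53 listed) 5 rose, led by Tnfsf10, and 1 fell, Birc5 (-1.40), which also acts in mitosis, a share near the 14.6% over all genes.

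Genes near the Cx3cr1 locus, where the CreERT2 insertion sits, were counted apart from Cx3cr1 itself. Within 5 Mb on each side 53 genes were tested and 11 passed (20.8%), 4 higher and 7 lower, beside 14.6% over all genes. Within 1 Mb it was 3 of 17 (17.6%). By chromosome, the share past the threshold was 12.3% on X (44 of 358) and 40.0% on the mitochondrial genome (8 of 20, all lower), and on Y it was 4 of 5.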
